A study of Mus musculus with 4 samples.

Results

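The genes of the m6A writer complex were followed in single-cell RNA libraries of mouse limb bone marrow in which the catalytic writer gene itself had been targeted. The group was chosen by name, as 9 of the 32285 genes in the deposited matrices: Mettl3, Mettl14, Wtap, Virma, Zc3h13, Rbm15, Rbm15b, Cbll1 and Mettl16. All 9 were found, and all 9 passed the low-count filter in every fit. Libraries came from C57BL/6 mice of age P12, 2 from Prx1-cre;Mettl3-fl/fl mice (mutant) and 2 from control mice. One mutant library carries the full genotype in its labels and the other carries the word mutant alone. The labels name neither the alleles of the control mice nor the part of Mettl3 that the floxed allele removes. Viable cells lacking the surface proteins CD45 and Ter119, which mark blood cells, were sorted from 3 mice per genotype. The labels do not tie mice to libraries, so p-values here rest on library-to-library spread, which may be partly technical. In the genotype fits that spread was estimated almost wholly over all genes together and not gene by gene.

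N6-methyladenosine, or m6A, is the most abundant internal modification of messenger RNA. METTL3 transfers the methyl group, METTL14 holds the RNA substrate beside it, and WTAP anchors the pair to a larger set of regulatory proteins: the scaffold VIRMA, the zinc finger protein ZC3H13, the RNA-binding proteins RBM15 and RBM15B, and CBLL1, also called HAKAI. METTL16 works apart from that complex, methylating U6 small nuclear RNA and the transcript of the methyl donor enzyme MAT2A. Reader proteins bind the mark and change the splicing, decay or translation of the RNA. Prx1-cre is driven by a limb bud enhancer of Prrx1 and is active in limb mesenchyme, from which marrow stroma, osteoblasts and osteocytes arise, and not in endothelial or blood cells. Loss of Mettl3 in this lineage has been described as impairing bone formation in mice.

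On mm10, with the GENCODE M21 annotation, Mettl3 lies at chr14:52294841-52305128 on the minus strand, and its 3′ end is shared over 1561 bases with Tox4, a gene on the opposite strand. Rbm15 lies at chr3:107325421-107333673 on the minus strand and overlaps no other annotated gene. Rbm15b, at chr9:106880918-106887428 on the minus strand, lies wholly inside the annotated span of Manf on the same strand, and its values are uncertain for that reason. Virma and Cbll1 each overlap 1 antisense gene, and no label or header states whether counting used strand. The remaining members have no overlapping gene: Mettl14 at chr3:123368297-123386108, Wtap at chr17:12966796-12994169, Zc3h13 at chr14:75284373-75344426 and Mettl16 at chr11:74770830-74828525.

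Rbm15 and Mettl16 are the members for which a genotype difference was called in at least 1 cell type, so their promoter windows were set side by side (RefSeq promoter table, GRCm38.p6, 250 bases before to 50 after each start). The longest stretch that both windows share on the strand of the gene is a palindrome of 10 bases, TCTCGCGAGA. The 30 bases around it are printed 5′ to 3′ with the palindrome in capitals. All 30 Rbm15 bases lie within the 5′ UTR of a GENCODE M21 transcript, and 8 of the Mettl16 bases do.
Rbm15, chr3:107333467-107333496, minus strand: gctctttgtcTCTCGCGAGAtcggagagag
Mettl16, chr11:74770808-74770837, plus strand: aagtcaaaagTCTCGCGAGAgtagtctgtc
The first palindrome base lay 197 bases before the RefSeq start of Rbm15 and 45 bases before that of Mettl16, and 0.466% of the 32851 windows in the table held the stretch. Among the 116 genes that hold it and were tested in bone cells, 12.9% were called higher and 7.76% lower in mutant libraries, against 14.3% and 11.3% of the 9940 tested genes with a window. In bone-gated cells the called shares of genes with the palindrome were thus no larger than those of all tested genes with a window. Rbm15 and Mettl16, chosen by their calls, are among the 116. Calls in erythroid-gated cells, where Mettl16 was called, were not compared, and a role of the stretch was not tested. The motif CCGGAAG, the core of ETS family sites, was searched on both strands and found in the windows of Mettl3, Zc3h13 and Cbll1, as in 8.86% of all windows. Of the 9 members, 7 are in the table, and Mettl14 and Virma are not.

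Mutant libraries held 47390414 and 81890483 UMIs (unique transcript tags), and control libraries 116863081 and 114143361. After filtering, 2628 and 4587 mutant cells and 5808 and 3635 control cells were kept, and any pair of libraries shared at most 10 cell barcodes. Cells were assigned by marker lists to 4 gates: stromal (53 and 11 mutant cells, 1001 and 49 control cells), bone (1856 and 1328 mutant cells, 263 and 42 control cells), endothelial (48 and 891 mutant cells, 31 and 552 control cells) and erythroid (88 and 836 mutant cells, 3820 and 2680 control cells). Erythroid-gated cells were present although Ter119-positive cells had been excluded, and their defining markers Klf1 and Gata1 were detected in that gate in every library. Levels are given as CPM, the UMIs of a gene per 1000000 UMIs of that gate in that library, and depth differed between gates and genotypes. Because libraries count 3′ tags, levels are compared within a gene and not between genes.

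**Figure D1:**
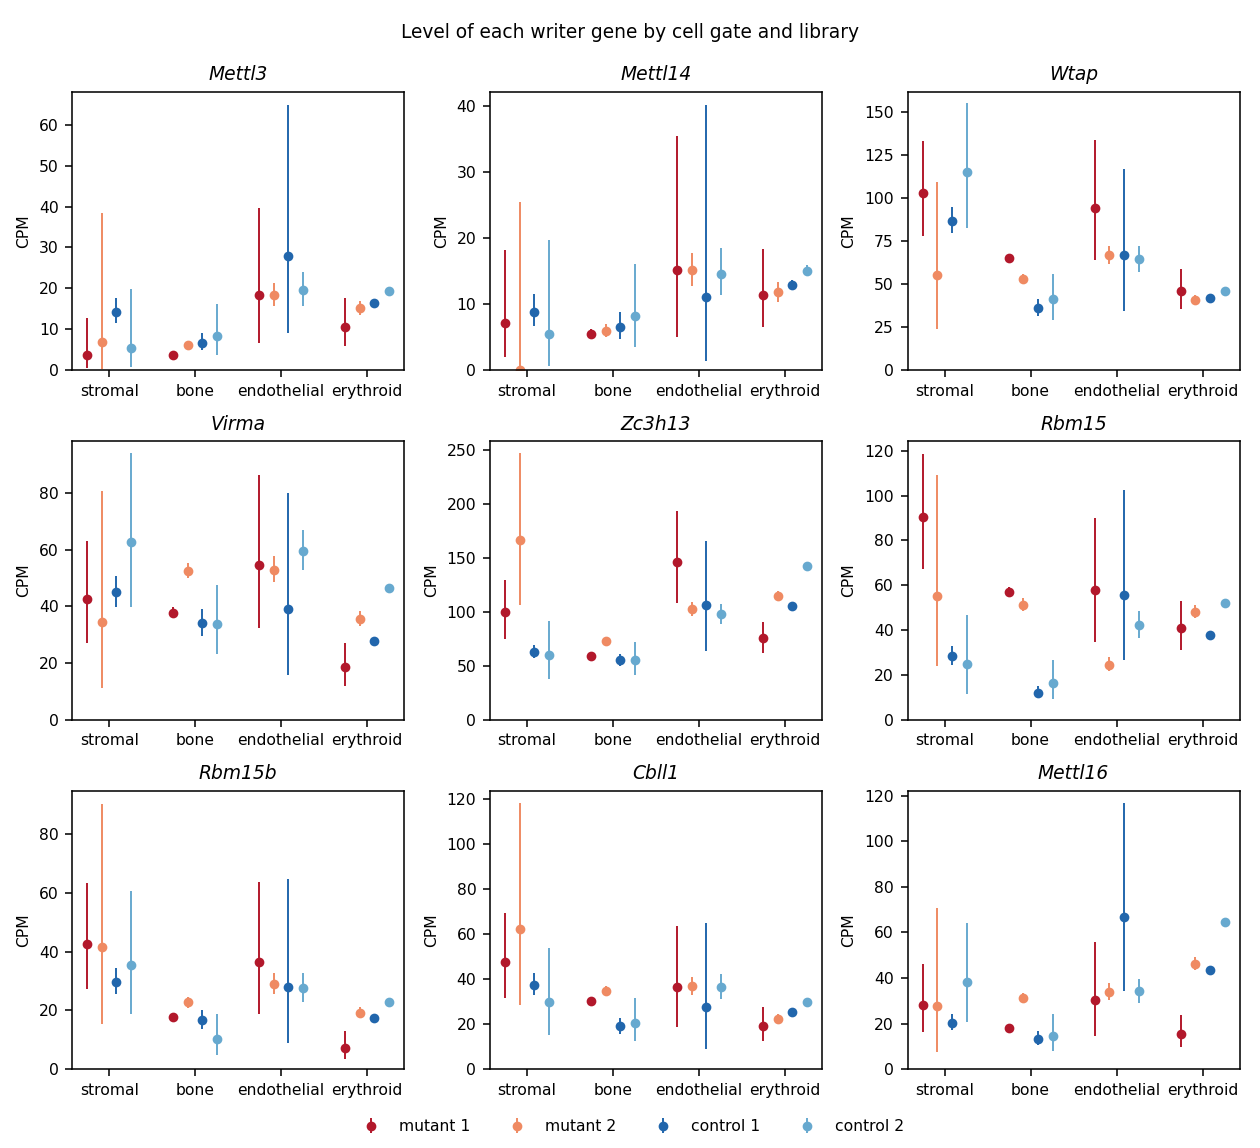
Level of each of the 9 writer genes (y axis, CPM, linear, own scale per panel) in 4 cell gates, with 1 point per library and exact 95% Poisson intervals that cover counting error only. Libraries compare within a gate; CPM is not scaled for composition between gates. In bone-gated cells the 2 mutant libraries sit at 56.9 and 51.3 CPM for Rbm15, above both control libraries.

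Few UMIs of the catalytic pair were counted in bone-gated cells. Mettl3 stood at 3.72 and 6.16 CPM in mutant libraries (144 and 163 UMIs) and at 6.63 and 8.19 CPM in control libraries (41 and 8 UMIs). The mutant libraries were both below the controls, by a margin that was small for the 6.16 CPM library. The log2 difference was -0.88 ± 0.37 (SE, 2 libraries per genotype) and missed the threshold (edgeR quasi-likelihood test, adjusted p = 0.0597). Within the processing batches the log2 ratios were -0.83 and -0.41. Counted at the 3′ end, Mettl3 tags may lie outside the floxed part, so this level does not report whether the gene was deleted. Tox4, whose reads could be counted there without strand information, had 24.0 and 30.4 CPM in mutant and 22.9 and 29.7 CPM in control bone-gated cells.

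Mettl14, the RNA-binding partner, stood at 5.48 and 5.93 CPM in mutant bone-gated cells and 6.46 and 8.19 CPM in control ones, with a log2 difference of -0.49 ± 0.36 (adjusted p = 0.338). Both mutant values were below both control values, by less than the counting error of the 8 UMIs in the second control. Of the UMIs of the pair, Mettl3 made up 40.4% and 50.9% in mutant bone-gated cells and 50.6% and 50.0% in control ones. The exact 95% interval of the first mutant library ran from 35.3% to 45.8%, and that of the first control library from 39.3% to 61.9%. Only 1 of the 2 mutant libraries was therefore low in this share, and the intervals overlapped.

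Free RNA, read from barcodes of 10 to 100 UMIs, held Mettl3 at 7.95 CPM in the second mutant library and at 19.2 and 19.4 CPM in the controls. It held Mettl14 at 9.12 CPM in the second mutant library and at 11.1 and 10.4 CPM in the controls; the first mutant file lists no such barcodes. Bone-gated levels of both genes were below the free RNA of their library in these 3 libraries. The part of free RNA in their UMIs, shares and genotype differences in this gate was not tested. For scale, erythroid markers summed to 65.0 and 97.3 CPM in control bone-gated cells and to 7465 and 6670 CPM in control erythroid-gated cells. In the control libraries the bone-gated levels of Wtap, Zc3h13 and Mettl16 were also below free RNA, and those of Virma were above it.

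The adaptor and scaffold members showed no called difference in bone-gated cells. Wtap had 64.9 and 52.6 CPM in mutant libraries and 35.9 and 41.0 CPM in control libraries, with no overlap and a log2 difference of 0.46 ± 0.24 (adjusted p = 0.142). In bone-gated cells that had no UMI of the osteocyte genes Mepe and Dmp1, a subset set after the data had been seen, Wtap was higher in mutant libraries by 0.89 log2 (adjusted p = 0.0128). Virma had 37.7 and 52.7 CPM in mutant and 34.1 and 33.8 CPM in control libraries. Zc3h13, which keeps the complex in the nucleus, had 58.7 and 72.9 CPM in mutant and 54.9 and 55.3 CPM in control libraries. Cbll1, a RING finger protein, had 30.2 and 34.7 CPM in mutant and 19.1 and 20.5 CPM in control libraries, a log2 difference of 0.51 ± 0.25 (adjusted p = 0.121). With scaling by total UMIs alone, which moved the median difference of all genes to 0.24 from 0.05, Cbll1 reached 0.70 (adjusted p = 0.0389).

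Rbm15 was the member that changed. It encodes an RNA-binding protein that brings the complex to its RNA targets. Its level was 56.9 and 51.3 CPM in mutant bone-gated cells (2200 and 1358 UMIs) and 11.96 and 16.4 CPM in control ones (74 and 16 UMIs). Both mutant libraries were far above both controls. The log2 difference was 1.86 ± 0.27 (adjusted p = 1.28e-10), the mutant library was 4.75 times the control library in 1 processing batch and 3.13 times in the other, and 1 of 9 members was called. Of all 12903 genes tested in bone-gated cells, 25.7% were called and 14.5% were called higher, so that 1 of 9 is no larger a share than that of all genes. The call rests in part on the first control library, without which the difference was 1.63 (adjusted p = 0.0798).

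The cells behind that difference were not of one make-up in the genotypes. Bglap, the osteocalcin gene of mature osteoblasts, had 3241 and 5477 CPM in mutant and 18848 and 42578 CPM in control bone-gated cells, and Mepe had 622 and 784 CPM against 87.6 and 200 CPM. Split by these osteocyte genes, Rbm15 stood at 53.7 and 50.9 CPM in mutant and 12.6 and 12.8 CPM in control cells with a Mepe or Dmp1 UMI. In cells without one it stood at 63.7 and 52.0 CPM in mutant and 11.3 and 18.8 CPM in control libraries, a log2 difference of 1.92 (adjusted p = 1.11e-07). The level was thus similar on both sides of the split in each genotype. Neutrophil markers also moved with genotype in this gate: the 9 genes summed to 349 and 1920 CPM in mutant libraries, with none at 0, and to 5.33 and 10.2 CPM in control libraries, with Ltf, Elane, Cebpe and Retnlg at 0 in the first control and 6 of 9 at 0 in the second. Neutrophil-gated cells of the mutant libraries held Rbm15 at 8.95 and 12.8 CPM, from sums of 1005134 and 5557061 UMIs. These values are not scaled for composition between gates, and neutrophil markers took 319557 and 319756 CPM there. The part of neutrophil RNA in the Rbm15 difference was not tested.

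Rbm15 was seen in 58.1% and 49.8% of mutant bone-gated cells and in 21.3% and 28.6% of control ones. With each cell thinned to 1000 UMIs the shares were 6.14% and 5.12% in mutant libraries and 1.52% and 0 of 42 cells in control libraries, a count that allows a share of up to 8.41% by the exact 95% bound. Free RNA held Rbm15 at 34.2 CPM in the second mutant library and at 46.2 and 47.4 CPM in the controls. Control bone-gated cells were below that level. The part of free RNA in their Rbm15 UMIs was not tested, and no gate is known to lack the gene. In the second mutant library the bone-gated level of 51.3 CPM was above its free RNA.

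**Figure D2:**
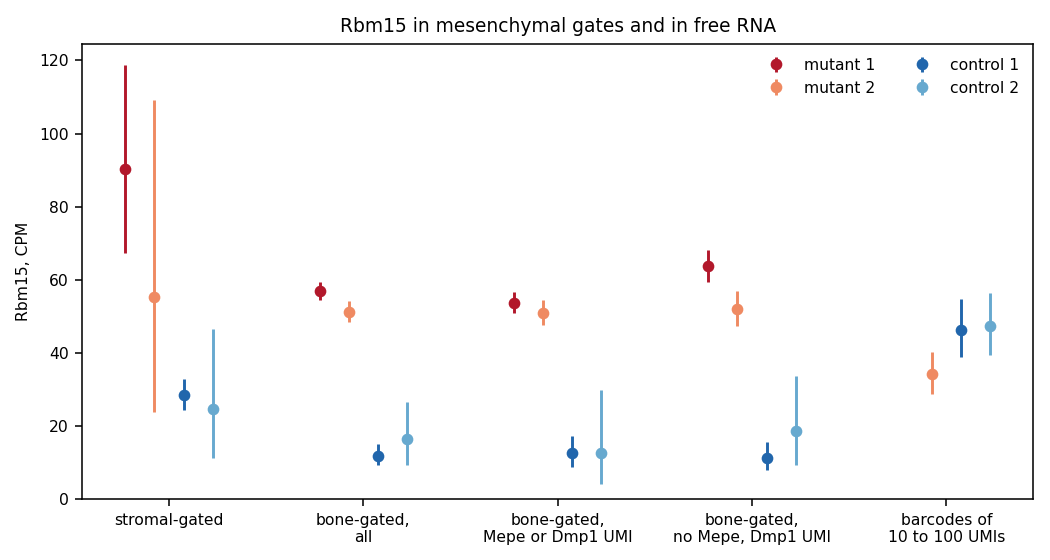
Rbm15 level (y axis, CPM, linear) per library in stromal-gated cells, bone-gated cells, bone-gated cells split by UMIs of Mepe or Dmp1, and barcodes of 10 to 100 UMIs (free RNA), with exact 95% Poisson intervals. In each bone-gated set the mutant points sit at 50.9 CPM or above and the control points at 18.8 CPM or below.

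Rbm15b, the close relative of Rbm15, had 17.9 and 22.7 CPM in mutant and 16.6 and 10.2 CPM in control bone-gated cells, a log2 difference of 0.22 ± 0.27 (adjusted p = 0.593). Mettl16, the separate methyltransferase, had 18.1 and 31.2 CPM in mutant and 13.4 and 14.3 CPM in control bone-gated cells, a log2 difference of 0.48 ± 0.26 (adjusted p = 0.180). The 9 genes together summed to 294 and 330 CPM in mutant and 199 and 208 CPM in control bone-gated cells, and to 237 and 279 CPM against 187 and 191 CPM with Rbm15 left out. In such sums, fewer expressing cells and less RNA per cell cannot be told apart.

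Outside the targeted lineage 1 genotype difference of a writer gene was called, that of Mettl16 in erythroid-gated cells. In endothelial-gated cells 0 of 9 members were called, where 5.41% of 10780 genes were; at an unadjusted p under 0.05 the count over all genes was 1193, and Rbm15 was among them at -0.60 ± 0.30 (adjusted p = 0.431). Rbm15 there had 57.8 and 24.5 CPM in mutant and 55.6 and 42.1 CPM in control libraries, and the groups overlapped. Neutrophil markers summed to 91.2 and 6344 CPM in mutant endothelial-gated cells, with 6 of 9 at 0 in the first library and none in the second, and to 0 and 27.9 CPM in control ones, with all 9 and 2 of 9 at 0. Bone markers summed there to 2600 and 849 CPM in mutant and 122 and 48.1 CPM in control libraries, and the part of either list in the Rbm15 values and in the comparison of bone- with endothelial-gated cells was not tested. Mettl3 had 18.2 and 18.3 CPM in mutant and 27.8 and 19.5 CPM in control endothelial-gated cells, with only 6 UMIs in the first mutant and 5 in the first control. Its log2 difference was -0.16 ± 0.39.

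In erythroid-gated cells 1 of 9 members was called, lower in mutant libraries, beside 7.6% of 12451 genes. By direction, 6.68% of these genes were called higher and 0.916% lower. Mettl16 had 15.6 and 46.3 CPM in mutant and 43.7 and 64.8 CPM in control libraries, with a log2 difference of -0.56 ± 0.17 (adjusted p = 0.0179). The low value came from 22 UMIs in 88 cells, the groups overlapped, and the call was lost with DESeq2 (adjusted p = 0.215) and without the batch term (adjusted p = 0.791). Without the first mutant library the difference was -0.17 (adjusted p = 0.999), without the second it was -1.33 (adjusted p = 0.0140), and leaving out either control ended the call. Mettl3 had 10.6 and 15.2 CPM in mutant and 16.4 and 19.4 CPM in control erythroid-gated cells, -0.23 ± 0.23 (adjusted p = 0.724). Bone markers summed to 1402 and 514 CPM in mutant and 53.3 and 44.1 CPM in control erythroid-gated cells, and their part in these values was not tested.

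**Figure D3:**
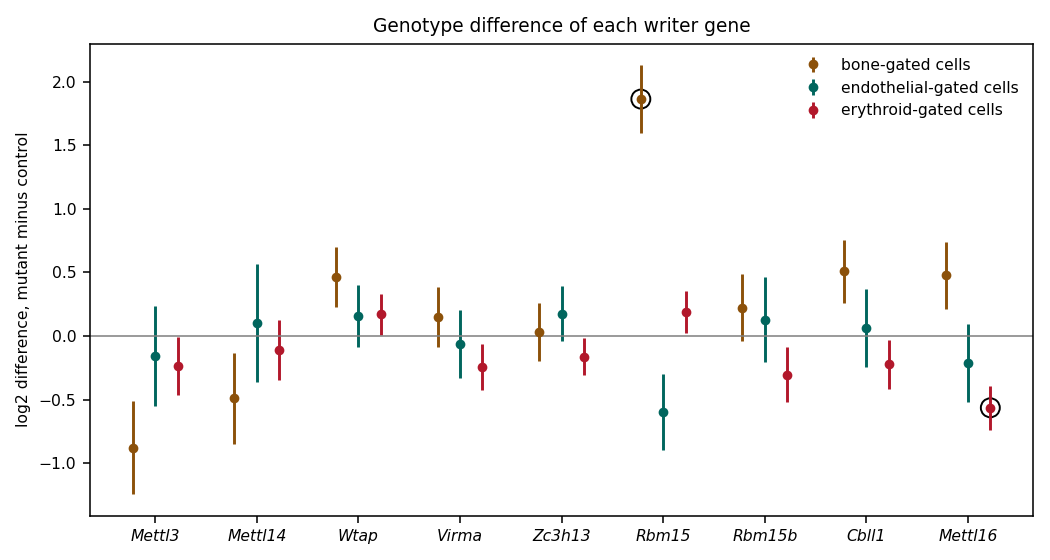
Genotype difference (y axis, log2, mutant minus control, with SE bars) of each writer gene in bone-, endothelial- and erythroid-gated cells, from edgeR fits of 2 mutant and 2 control libraries. Rings mark adjusted p under 0.05: Rbm15 in bone-gated cells at 1.86 and Mettl16 in erythroid-gated cells at -0.56.

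Whether a genotype difference itself differed between gates was tested with an interaction term. The Rbm15 difference was larger in bone-gated than in endothelial-gated cells by 2.10 ± 0.47 log2 (adjusted p = 0.0268) and larger in bone-gated than in erythroid-gated cells by 1.73 ± 0.40 (adjusted p = 0.0132). These were 1 of 9 members in each contrast, beside 1.63% and 6.27% of 13755 genes called. Without the first control library the values were 1.88 (adjusted p = 0.104) and 1.69 (adjusted p = 0.0800), and without the second control the difference from endothelial-gated cells was 2.47 (adjusted p = 0.105). Mettl3 gave -0.53 ± 0.51 and -0.27 ± 0.43 in these contrasts, so a larger deficit in bone-gated cells was not detectable at this depth. Mettl16 differed by 1.44 ± 0.43 between bone- and erythroid-gated cells (adjusted p = 0.0527).

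Stromal-gated cells could not be tested between genotypes with 11 cells in the second mutant library. The 10 stromal markers summed to 7754 and 13463 CPM in mutant and 41554 and 35263 CPM in control libraries, with none at 0. The 11 bone markers summed to 10247 and 6098 CPM in mutant and 2435 and 1841 CPM in control libraries, with Mepe at 0 in the second library of each genotype. In the first mutant library this gate thus held more bone than stromal marker RNA, and the name stromal refers to the gating rule. Neutrophil markers reached 7012 CPM in the second mutant library, with 2 of 9 at 0, against 133 CPM in the first mutant library and 1386 and 43.7 CPM in the controls. Rbm15 stood at 90.3 and 55.4 CPM in mutant (51 and 8 UMIs) and 28.4 and 24.6 CPM in control libraries (174 and 9 UMIs). Zc3h13 stood at 99.2 and 166 CPM in mutant and 62.9 and 60.1 CPM in control libraries. For both genes the mutant libraries were above the controls, and the part of the marker differences in these values was not tested. Mettl3 had 3.54 and 6.92 CPM in mutant libraries, from 2 UMIs and 1 UMI, and 14.2 and 5.46 CPM in control libraries, from 87 and 2 UMIs. Mettl14 had no UMI in the second mutant library, where 3 counts would be 20.8 CPM.

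Between gates, within libraries, the catalytic pair, Zc3h13 and Mettl16 were higher in erythroid-gated than in bone-gated cells. For this comparison CPM was scaled by TMM factors, which correct for the share of RNA that a few abundant genes take in each gate. Scaled this way, Mettl3 stood at 15.1 to 24.8 CPM in erythroid-gated, 13.4 to 19.1 CPM in endothelial-gated, 4.80 to 10.5 CPM in bone-gated and 2.94 to 10.8 CPM in stromal-gated cells over the libraries. Unscaled, Mettl3 in erythroid-gated cells stood at 16.4 and 19.4 CPM in the control libraries, near their free RNA of 19.2 and 19.4 CPM, and the part of free RNA in the differences between gates was not tested. Erythroid-gated exceeded bone-gated cells by 1.52 ± 0.24 log2 (adjusted p = 4.90e-05) and endothelial-gated exceeded bone-gated cells by 1.01 ± 0.27 (adjusted p = 0.00695). The endothelial call was lost in control libraries alone (0.75, adjusted p = 0.158) and without the second mutant library (1.03, adjusted p = 0.0670). Erythroid- and endothelial-gated cells were not called different in Mettl3 (-0.51 ± 0.25, adjusted p = 0.0789), nor stromal- and bone-gated cells (-0.14 ± 0.32).

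Mettl14 ran from 15.5 to 19.4 scaled CPM in erythroid-gated and from 6.40 to 10.5 in bone-gated cells, a log2 difference of 1.16 ± 0.22 (adjusted p = 3.33e-04), with no overlap. Zc3h13 ran from 106.5 to 177.7 scaled CPM in erythroid-gated and from 71.2 to 78.7 in bone-gated cells, a difference of 0.99 ± 0.24 (adjusted p = 0.00174), also with no overlap. Mettl16 ran from 22.1 to 81.0 scaled CPM in erythroid-gated and from 18.5 to 33.7 in bone-gated cells, a difference of 1.21 ± 0.32 (adjusted p = 0.00352), and these ranges overlapped through the first mutant library. All 4 erythroid against bone calls held in control libraries alone, with scaling by total UMIs, with DESeq2 and without each library in turn. They were 4 of 9 members, beside 71% of 13578 genes called in that contrast, 44.4% for endothelial against bone and 27.8% for stromal against bone, where 0 of 9 were called (5356 genes had an unadjusted p under 0.05).

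The level of Rbm15 in relation to the other gates depended on genotype. In scaled CPM, mutant libraries stood at 73.3 and 55.4 in bone-gated and 58.3 and 63.4 in erythroid-gated cells, and control libraries at 17.1 and 21.1 in bone-gated and 57.2 and 65.0 in erythroid-gated cells. Erythroid-gated exceeded bone-gated cells by 1.75 log2 in control libraries alone (adjusted p = 1.91e-06), against 0.74 ± 0.37 over all libraries (adjusted p = 0.0895). Endothelial- and erythroid-gated cells were called different for Mettl14, Zc3h13, Rbm15 and Mettl16, at -0.64 to -1.13 log2, beside 68.8% of all genes. With scaling by total UMIs, which put the median of all genes in this contrast at 0.95 rather than 0.11, none of these 4 was called in that direction, and Mettl14 turned to 0.19. Those 4 calls therefore rest on the choice of scaling.

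**Figure D4:**
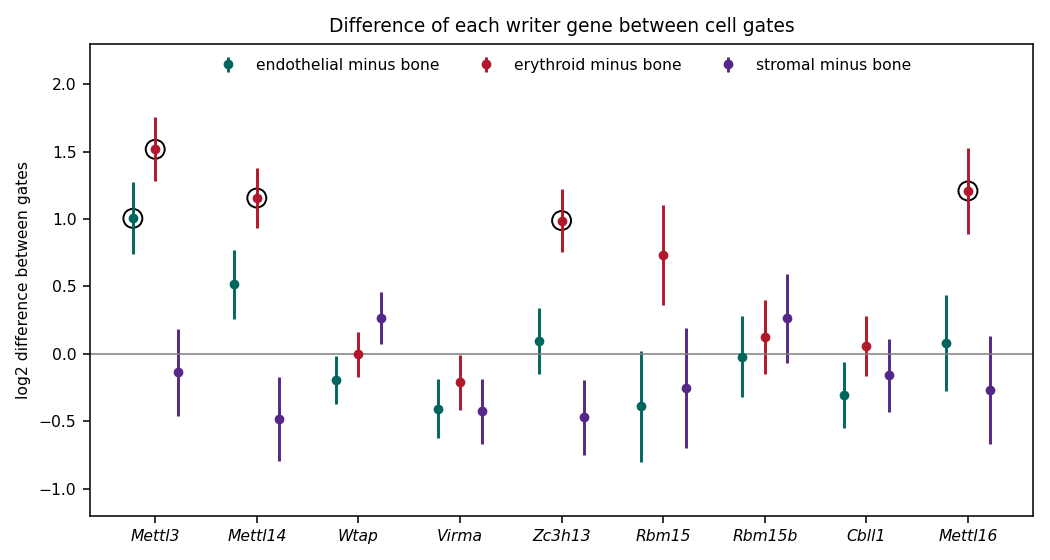
Difference of each writer gene between gates (y axis, log2, with SE bars) from 1 edgeR fit of 15 gate and library sums with library as a block. Rings mark adjusted p under 0.05: Mettl3, Mettl14, Zc3h13 and Mettl16 for erythroid minus bone, and Mettl3 for endothelial minus bone.

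Across the 15 gate and library sums, Mettl14 followed Mettl3 closely, with a Pearson r of 0.88 of log2(CPM + 1), rank 18 of 8906 genes. Zc3h13 reached 0.65 and Mettl16 0.56, while Wtap stood at -0.16 and Rbm15 at 0.04. Among the most like genes were Trappc6a, Triap1 and Vps52 at 0.92 and Smg9 at 0.91. The sums share libraries and depth, and these values are descriptions. CPM was not scaled for composition between gates here. Some sums hold few UMIs of the pair, such as 2 of each gene in stromal-gated cells of the second control library. Among the regulatory members, Rbm15b and Cbll1 reached 0.84 with each other and Rbm15b and Virma 0.82.

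Around the writers, the reader genes Ythdf2 and Ythdf1 rose in bone-gated cells, and 5 of 11 readers were not called. Of the 11, 6 were called higher and 0 lower in mutant libraries, with a median log2 difference of 0.70 against 0.05 over all genes, where 14.5% of genes were called higher. Ythdf2, which sends marked RNA to decay, had 115 and 120 CPM in mutant and 31.0 and 27.6 CPM in control libraries, a log2 difference of 1.79 ± 0.24 (adjusted p = 4.86e-12). Ythdf1, linked to translation, had 60.9 and 71.5 CPM in mutant and 23.4 and 26.6 CPM in control libraries, 1.21 ± 0.24 (adjusted p = 1.52e-05). The groups did not overlap for either gene. Igf2bp3 rose by 1.13, Igf2bp2 by 0.83, the nuclear reader Ythdc1 by 0.71 and Ythdf3 by 0.70, while Hnrnpc at 0.0019 was the smallest difference of the list.

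The count of 6 readers was not stable. It was 1 without the first control library, 2 without the second control or the first mutant, and 3 without the second mutant library, with 2 under DESeq2 and 3 without the batch term. Ythdf2 was called in each of these fits, at 1.65 to 1.99 without single libraries. Ythdf1 was called in all of them but that without the first control library (1.21, adjusted p = 0.101). In bone-gated cells without Mepe and Dmp1 UMIs the count was 3, with Ythdf2 at 1.80 (adjusted p = 1.46e-09) and Ythdf1 at 1.08 (adjusted p = 0.00136).

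The erasers Alkbh5 and Fto gave -0.46 each and neither was called (adjusted p = 0.114 and 0.130). Of 5 genes for other RNA adenosine methyltransferases and a partner protein none was called. They ran from Mettl5 at -0.62 to the cap methyltransferase gene Pcif1 at 0.57 (adjusted p = 0.0634). Pcif1 was called with scaling by total UMIs (0.76, adjusted p = 0.0211). Of 5 methyl donor genes none was called, from Mat2b at -0.08 to Ahcy, which clears the product of methylation, at 1.08 ± 0.56. Over all genes tested in bone-gated cells 25.7% were called, and 4565 had an unadjusted p under 0.05.

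In endothelial-gated cells 0 of 9 tested readers were called and in erythroid-gated cells 0 of 10, beside 5.41% and 7.6% of all genes tested there. Ythdf2 had 30.5 and 49.1 CPM in mutant and 45.5 and 59.4 CPM in control erythroid-gated cells, with overlap. By the interaction term its genotype difference was larger in bone-gated than in erythroid-gated cells by 2.10 ± 0.38 log2 (adjusted p = 0.00228). That of Ythdf1 was larger by 1.44 ± 0.34 (adjusted p = 0.0141), a call lost without the first or the second control library (adjusted p = 0.0944 and 0.0949). These were 2 of 11 readers, beside 6.27% of all genes called in that contrast. Between bone- and endothelial-gated cells 0 of 11 were called, beside 1.63% of all genes, and Ythdf2 gave 1.53 ± 0.42 (adjusted p = 0.0754). That value was 0.92 without the second control library (adjusted p = 0.876). It was called under DESeq2 (1.52, adjusted p = 0.0145), and at 1.93, 1.57 and 1.55 without the first control, the first mutant and the second mutant library (adjusted p = 0.0416, 0.00839 and 0.0347).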

How the data were processed

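The authors deposited raw UMI counts (genes by barcodes, integers, not normalized), per the file headers. Cell Ranger and mm10 were used, per the submitters' processing notes, with version 5.0.1 for 1 library of each genotype and 6.1.2 for the other; this split served as batch. The headers name other versions (4 for 3 libraries). The first mutant file lists 3352 called barcodes only.

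Cells needed at least 1000 UMIs, 500 genes and at most 10% mitochondrial UMIs. A cell was gated by the marker list, of 10, with the largest share detected, if at least 4 markers were seen and the lead over the next list exceeded 20% of a list; other cells, mixed cells among them, were left out. No doublet caller was applied in the main result; Scrublet (scanpy 1.11.5) was an alternative. UMIs were summed per library and gate (at least 20 cells) and analysed by the edgeR quasi-likelihood test (version 4.0.16, R 4.3.3) after TMM and filterByExpr, with a Benjamini-Hochberg threshold of 0.05. Genotype fits had a batch term and 1 residual degree of freedom; the spread is almost wholly shared across genes. Gates were compared with library as a block (8 residual degrees of freedom), interactions likewise (4). Fits were tested on simulated data. DESeq2 1.42.0 was an alternative. Intervals are exact and cover counting error only. Of the 32285 gene identifiers, 32158 were in GENCODE M21.

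The members and lists were chosen with earlier results of these data known. Every member is named; other genes are named if called, or at the end of their list, or among the 5 most like Mettl3. Tox4 and single markers were named after their values were seen. One gene that this rule names is not reported here.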

Additional observations from a re-analysis of the deposited data

Results flagged for a closer look

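The genotype difference of Rbm15 differed between gates by the test of the difference itself. It was larger in bone-gated cells by 2.10 log2 than in endothelial-gated cells and by 1.73 log2 than in erythroid-gated cells, with 2 mutant and 2 control libraries in each gate. Mutant libraries stood above controls in 2 of 2 batches in bone-gated cells, at log2 ratios of 2.25 and 1.65, and at 0.12 and -0.11 in erythroid-gated cells. The lowest Rbm15 counts in endothelial-gated cells were 19 UMIs in the first mutant and 10 in the first control library, and behind both values lie the 16 UMIs of the second control library in bone-gated cells. The genotype differences of the reader genes Ythdf2 and Ythdf1 likewise differed, being larger in bone-gated than in erythroid-gated cells by 2.10 and 1.44 log2. For Ythdf2 the difference was 1.79 in bone-gated and -0.17 in erythroid-gated cells, and for Ythdf1 it was 1.21 and -0.06.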

How the results depend on the processing

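The labels carry no replicate numbers shared between genotypes. Each processing batch holds 1 mutant and 1 control library, so the batch term already blocks the genotype fits by such pairs, and the fits without the batch term are those without this block. Scaling by total UMIs, control libraries alone and the Mepe and Dmp1 subset were chosen after seeing the data. Cells with a Mepe or Dmp1 UMI were not fitted, since the second control library holds 17. The causes of the shifts that follow were not tested. Fits without 1 library have no batch term and assume that a lone sample varies like the other groups.

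Over 959 member values under alternatives, 853 kept their direction and side of the threshold, 21 calls were lost, 20 were gained and 65 turned sign. Of the 13 member values called in the main fits, 1 turned sign: Mettl14 between endothelial- and erythroid-gated cells, to 0.19 with scaling by total UMIs, which also turned Mettl3 there to 0.33 and Mettl3 between stromal- and bone-gated cells to 0.65. The last was 0.12 with DESeq2 and -1.07 to 0.056 without single libraries. In bone-gated cells Zc3h13 turned to -0.0025 without top Scrublet scores and to -0.13 in cells without Mepe and Dmp1 UMIs, and ran from -0.028 to 0.14 without single libraries, where Rbm15b ran from -0.0019 to 0.87. Rbm15 in endothelial-gated cells ran from -0.86 to 0.37, the highest without the second mutant library.

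The 6 readers called higher in bone-gated cells became 2 with DESeq2, 3 without the batch term, 3 in cells without Mepe and Dmp1 UMIs and 1 to 3 without single libraries. Hnrnpc turned to -0.0037 with DESeq2 and ran from -0.099 to 0.15 without single libraries; Mat2b turned to 0.12 with scaling by total UMIs and ran from -0.18 to 0.021. The 3316 genes called by genotype in bone-gated cells became 1229 with DESeq2, 1195 without the batch term and 182 to 1597 without single libraries, lowest without the first control. The 583 in endothelial-gated cells became 127, 61 and 6 to 449 (lowest without the second control), and the 946 in erythroid-gated cells 559, 196 and 121 to 726 (lowest without the second control). Between stromal- and bone-gated cells, 3777 became 6333 with scaling by total UMIs and 1312 to 4405 without single libraries, lowest without the first control. The 224 genes whose genotype difference differed between bone- and endothelial-gated cells became 513 without the low-count filter, 372 without top Scrublet scores and 108 to 700 without single libraries; the 863 between bone- and erythroid-gated cells became 1532 without that filter. With scaling by total UMIs the share of higher calls was 74.9% rather than 56.6% in bone-gated, 69.8% rather than 87.9% in erythroid-gated cells, 77.5% rather than 44.8% for endothelial against bone, 74.0% rather than 52.5% for endothelial against erythroid, 89.7% rather than 49.3% for stromal against bone, and 74.5% and 68.1% rather than 51.3% and 49.4% in the interactions; for the second of these DESeq2 gave 24.7%.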

Other observations

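Of the cell gates outside the comparisons, neutrophil-gated cells held the writer genes at lower CPM, not scaled for composition, than B lineage cells. The 9 writer genes summed to 90.5 and 125 CPM in mutant and 184 and 176 CPM in control neutrophil-gated cells, the controls with 23 and 30 cells. In B lineage cells they summed to 506 CPM in the second mutant library (58 cells) and 418 and 527 CPM in the controls. The first mutant library held 11 B lineage cells, with a sum of 358 CPM from 17 UMIs. Neutrophil markers took 319557 and 319756 CPM in mutant and 270566 and 318067 CPM in control neutrophil-gated cells. The part of this in the lower sums was not tested. Wtap stood at 98.3 CPM in B lineage cells of the second mutant library and at 101 and 103 CPM in those of the controls. Rbm15 in B lineage cells had 45.4 CPM in the second mutant library and 46.4 and 46.0 CPM in the controls. The intervals of these 3 Rbm15 values overlap.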
